A study of Homo sapiens with 6 samples.

Results

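The 37 genes described here encode lysosomal proteases, glycosidases, sulfatases, lipid hydrolases and their helpers, proteins of the lysosomal membrane, the autophagy receptor SQSTM1 and the MiT/TFE transcription factors. They were chosen by symbol from a series table of 20356 genes, which held all 37, on 39 rows. RNA sequencing was done on 3 libraries of H1975 OR, a derivative of the human lung adenocarcinoma line H1975 that resists osimertinib and was cultured with 1 µM of this EGFR inhibitor, and on 3 libraries of parental H1975 cells grown without a stated drug. The labels describe the 3 libraries of each group as biological replicates and both lines as grown in the same medium with serum. H1975 OR is a single resistant derivative measured with the drug present, so resistance, the drug and other differences of this derivative cannot be told apart, and the labels do not say whether it is a clone. Levels are given as FPKM, a measure that corrects fragment numbers for gene length and for depth and so allows levels of different genes to be compared.

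Lysosomes are acidic organelles in which hydrolases break down proteins, glycans and lipids that arrive by endocytosis or autophagy. Most of the soluble enzymes carry a mannose 6-phosphate tag by which receptors sort them to the lysosome, and an ATP-driven proton pump acidifies the lumen. The MiT/TFE factors bind a short palindromic element in the promoters of many lysosomal genes, and active mTORC1 at the lysosomal surface holds them in the cytoplasm by phosphorylation, so the mRNA level of such a factor does not measure its activity.

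The libraries were of similar depth, with an estimated 9.72 to 11.5 gigabases mapped in H1975 OR and 10.8 to 14.7 gigabases in H1975. Rank correlations over the 12107 genes tested were 0.9947 to 0.9962 within a group and 0.8456 to 0.8538 between groups. Of the 9 markers of the labelled tissue 7 were tested, and all 7 were lower in H1975 OR. KRT8 averaged 384 FPKM in H1975 OR and 508 FPKM in H1975, whereas EPCAM was at 1.02 FPKM in H1975 OR against 211 FPKM in H1975 and the lineage factor NKX2-1 was listed at 0 in each H1975 OR library. NKX2-1 and CDH1, which averaged 0.0248 FPKM in H1975 OR and 68.6 FPKM in H1975, were tested only through their level in H1975. The surfactant gene SFTPB was under 0.01 FPKM on average in both groups.

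All 37 genes reached a group mean of 1 FPKM and were tested, TFEB and IDUA only through their level in H1975 OR. In limma on log2(FPKM + 1) with Benjamini-Hochberg adjustment over all genes tested, 21 were higher in H1975 OR, 11 were lower and 5 did not pass an adjusted p of 0.05. The 32 that passed are 86.5% of the 37, beside 78% of all genes tested. The 21 higher genes are 56.8% of the 37, beside 39.9% of all genes tested, and the 11 lower ones 29.7%, beside 38.1%. At a difference of at least 1 on the log2 scale, 8 were higher (21.6%) and 1 was lower (2.70%), beside 9.95% higher and 9.39% lower among all genes tested. The median difference was 0.36 on the log2 scale, against 0.01 over all genes tested. In FPKM, H1975 OR libraries lay entirely on one side of H1975 libraries for 33 of the 37, beside 79.8% of all genes tested.

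**Figure D1:**
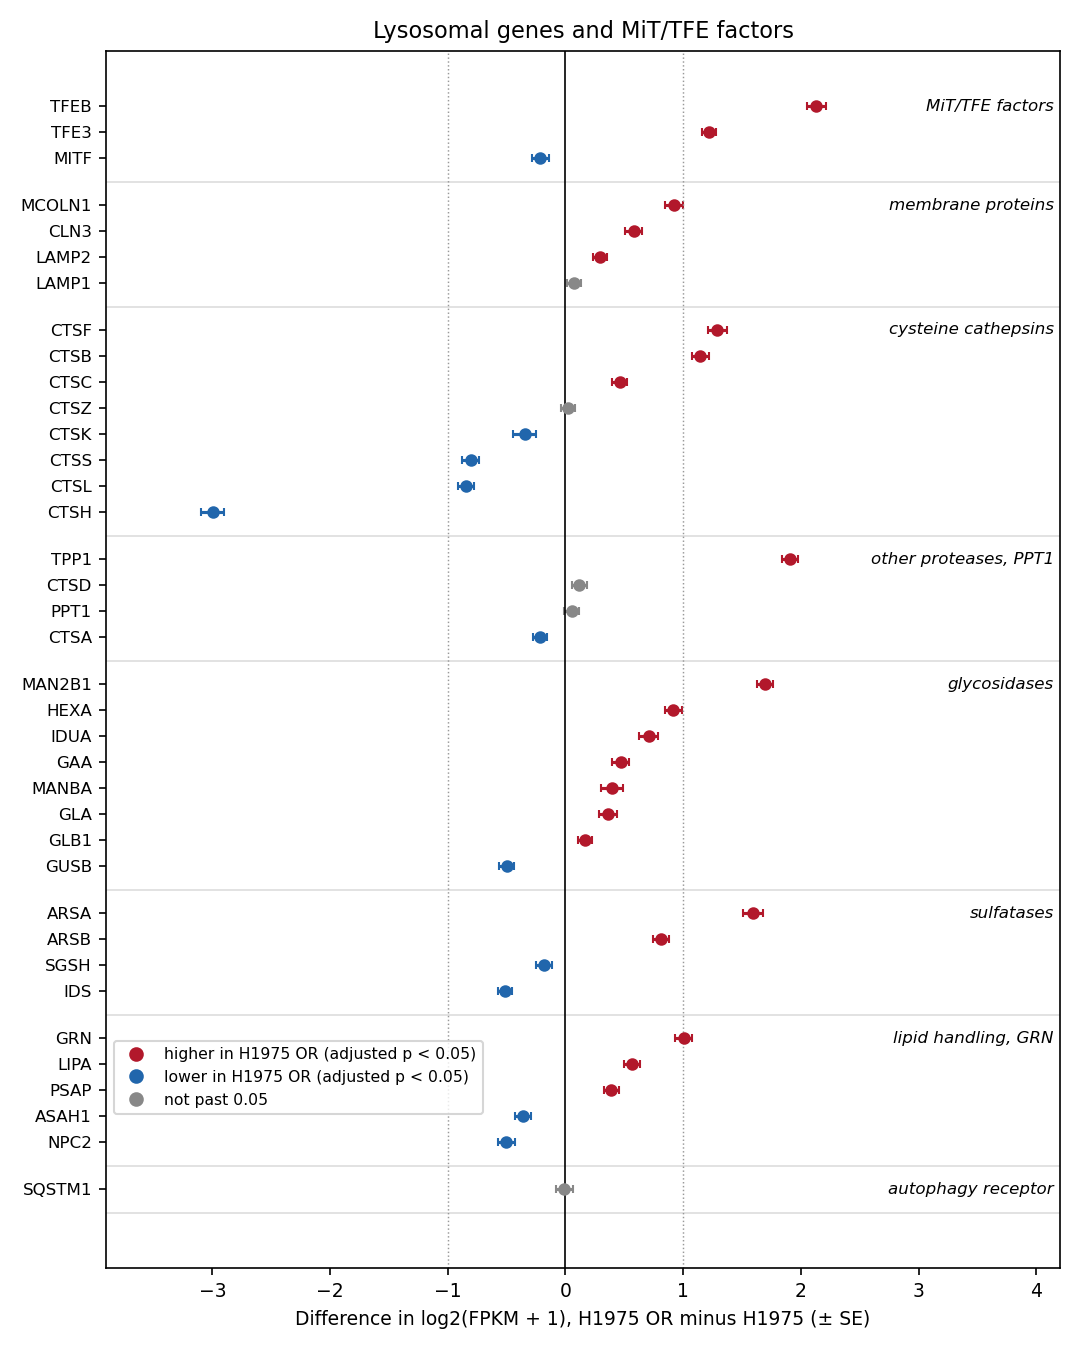
Difference in log2(FPKM + 1), H1975 OR minus H1975, with its standard error from limma, for the 37 genes grouped by role. Red points passed an adjusted p of 0.05 as higher, blue as lower, and grey points did not pass. TFEB, at 2.13, and CTSH, at -3.00, are the ends of the range, and the dotted lines mark a difference of 1 in either direction.

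Together the 37 genes took a larger share of the transcriptome in every H1975 OR library. Their FPKM summed to 2587, 2758 and 2757 in H1975 OR replicates 1 to 3, against 2242, 2189 and 2193 in H1975 replicates 1 to 3. This was 0.616%, 0.627% and 0.642% of all TPM (transcript abundances that sum to the same total in each library) in the H1975 OR libraries and 0.504%, 0.498% and 0.503% in the H1975 libraries. The order of levels was steep. CTSD and PSAP ranked first and second in both groups, and CTSD, PSAP, GRN, CTSB and SQSTM1 made up 57.2% to 58.0% of the summed FPKM in H1975 OR libraries and 51.5% to 52.6% in H1975 libraries. CTSK, at a mean of 1.09 FPKM, was the lowest of the 37 in H1975 OR, and TFEB, at 0.502 FPKM, the lowest in H1975.

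Among the MiT/TFE factors, basic helix-loop-helix leucine zipper proteins that can pair with each other, TFEB and TFE3 rose while MITF fell slightly. TFEB (6:41651716-41703997) had 4.91, 5.65 and 6.26 FPKM in H1975 OR replicates 1 to 3, against 0.514, 0.491 and 0.50 FPKM in H1975 replicates 1 to 3. Every H1975 OR library was thus far above every H1975 library, and the means stood in a ratio of 11.2. Chromosome 6, on which TFEB lies, had a median of 0.37 over its tested genes. Low genes change by less on a log2(FPKM + 1) scale than in FPKM, and on it the difference of TFEB was 2.13 ± 0.0829 (SE, limma adjusted p = 1.8e-10), and with a pseudocount of 0.1 it was 3.24. TFE3 (X:48886242-48901012) had 41.7, 44.7 and 42.9 FPKM in H1975 OR replicates 1 to 3, against 18.9, 17.3 and 17.6 FPKM in H1975 replicates 1 to 3, again without overlap (1.22 ± 0.0616 SE on the log2 scale, limma adjusted p = 2.0e-09).

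MITF (3:69788586-70017488), the member best known from melanocytes and osteoclasts, had 12.0, 10.4 and 11.9 FPKM in H1975 OR replicates 1 to 3, against 13.5, 14.2 and 12.4 FPKM in H1975 replicates 1 to 3. The groups did not overlap but lay close together (-0.21 ± 0.0728 SE, limma adjusted p = 0.017). This call was lost without H1975 OR replicate 2 (adjusted p = 0.080), without H1975 replicate 2 (adjusted p = 0.075) and with scaling that left out mitochondrially encoded genes (adjusted p = 0.11). The makeup of the family differed with it. TFE3 was the most abundant of the 3 in both groups, with 71.7% ± 1.74 of their summed FPKM in H1975 OR and 56.4% ± 2.0 in H1975 (SD, n = 3 each), while MITF took 19.0% ± 1.73 in H1975 OR and 42.1% ± 2.04 in H1975. TFEB took 9.31% ± 0.942 in H1975 OR and 1.58% ± 0.0562 in H1975. The remaining gene of the family, TFEC, was listed at 0 in every H1975 OR library and averaged 0.00294 FPKM in H1975. Of 6 melanocyte markers only PMEL, at 1.69 FPKM in H1975 OR and 0.999 FPKM in H1975, was high enough to be tested. It rose, but was tested only through its level in H1975 OR. MLANA averaged 0.0811 FPKM in H1975 OR and 0.347 FPKM in H1975, and TYR, TYRP1, DCT and SOX10 averaged under 0.1 FPKM in both groups.

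RefSeq promoters, 250 bases before to 50 after an annotated start on GRCh38.p14, were at hand for 27 of the 37 genes. They were searched on both strands for TCACGTG, the core of the element that these factors bind, which reads CACGTGA on the other strand and contains the general E-box CACGTG. It was found for 8 of the 27 genes (29.6%), beside 4.49% of the 27305 genes in the table and 3.71% of its 35116 promoters. CACGTG alone was in the promoters of the same 8 genes and of 8.77% of all genes. The longer palindrome of 10 bases known as the CLEAR consensus was found for GAA and MCOLN1, beside 0.421% of all genes. The element is known from promoters of lysosomal genes, so higher shares here were likely in advance and are no result of the libraries. The genes set beside them were not limited to those tested. The stretches that hold the core are shown for these 8 genes, written 5′ to 3′ on the strand of the gene, with the core in capitals. Where the core and its reverse overlap, the run of capitals has 8 letters.
MCOLN1, chr19:7522567-7522631, plus strand: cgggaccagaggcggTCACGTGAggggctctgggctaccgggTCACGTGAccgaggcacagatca
GAA, chr17:80101489-80101571, plus strand: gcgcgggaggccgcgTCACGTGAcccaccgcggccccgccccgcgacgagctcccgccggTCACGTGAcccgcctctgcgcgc
CLN3, chr16:28492065-28492119, minus strand: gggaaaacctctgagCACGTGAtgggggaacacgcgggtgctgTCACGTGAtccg
CTSF, chr11:66568708-66568744, minus strand: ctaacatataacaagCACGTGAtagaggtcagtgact
ARSB, chr5:78986097-78986133, minus strand: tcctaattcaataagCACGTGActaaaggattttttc
CTSD, chr11:1763953-1763989, minus strand: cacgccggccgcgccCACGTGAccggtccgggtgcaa
CTSA, chr20:45891277-45891331, plus strand: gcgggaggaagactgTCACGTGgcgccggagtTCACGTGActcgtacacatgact
LAMP1, chr13:113297031-113297248, plus strand: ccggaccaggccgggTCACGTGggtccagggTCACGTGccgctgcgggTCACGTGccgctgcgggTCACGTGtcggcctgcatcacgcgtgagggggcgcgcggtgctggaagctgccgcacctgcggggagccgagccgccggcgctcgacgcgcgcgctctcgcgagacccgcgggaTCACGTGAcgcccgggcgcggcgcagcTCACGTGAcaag

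The number of copies did not order the genes by their change in mRNA. LAMP1, with 6 copies between 193 and 2 bases before the start, differed by 0.07 on the log2 scale and did not pass, and CTSA, with 2 copies, fell by 0.22. CTSF, with a single copy 123 bases before the start, rose by 1.29, MCOLN1 by 0.92, ARSB by 0.81, CLN3 by 0.58 and GAA by 0.47, and CTSD differed by 0.12 and did not pass. Of the 8 genes 5 were higher and 1 was lower in H1975 OR with a median of 0.52, and of the 19 genes whose promoters lacked the core 10 were higher and 6 lower with a median of 0.17, beside 39.9% higher and 38.1% lower among all genes tested. The difference between these small sets was not tested. TFEB, TFE3, TPP1 and MAN2B1 were among the 19. A match in these windows is a match of letters and not a measured binding site, and binding was not measured.

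Of the membrane proteins, MCOLN1, CLN3 and LAMP2 rose and LAMP1 did not pass. LAMP1 (13:113951556-113977987) and LAMP2 (X:119561682-119603220) are the heavily glycosylated proteins that line the lysosomal membrane. LAMP1 had 87.1, 92.3 and 87.1 FPKM in H1975 OR replicates 1 to 3, against 81.9, 88.0 and 83.6 FPKM in H1975 replicates 1 to 3, with overlapping groups (limma adjusted p = 0.30). Chromosome 13, on which LAMP1 lies, had a median of -0.42 over its tested genes. LAMP2 had 87.4, 88.0 and 92.7 FPKM in H1975 OR replicates 1 to 3, against 73.0, 71.8 and 73.2 FPKM in H1975 replicates 1 to 3 (0.29 ± 0.0580 SE, limma adjusted p = 0.00049). The paired genes were thus near the same level in H1975 OR.

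MCOLN1 (19:7587512-7598895), the channel TRPML1 that releases calcium from lysosomes, had 12.5, 15.5 and 12.6 FPKM in H1975 OR replicates 1 to 3, against 6.75, 6.53 and 6.67 FPKM in H1975 replicates 1 to 3. Its groups were far apart, in a ratio of 2.04 (0.92 ± 0.0787 SE, limma adjusted p = 2.8e-07). CLN3 (16:28477983-28506896), a membrane protein lost in a juvenile form of neuronal ceroid lipofuscinosis, averaged 20.1 ± 1.65 FPKM in H1975 OR and 13.1 ± 0.930 FPKM in H1975 (SD, n = 3 each) and rose. A further gene ID of the table carries the symbol CLN3 over an overlapping locus and was at 0.917 FPKM or less in every library.

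The cysteine cathepsins split in both directions: CTSB, CTSF and CTSC rose, CTSH, CTSL, CTSS and CTSK fell, and CTSZ did not pass. CTSB (8:11700033-11726957), an abundant endopeptidase that can also act as a carboxypeptidase, had 201, 214 and 219.8 FPKM in H1975 OR replicates 1 to 3, against 101, 95.6 and 88.1 FPKM in H1975 replicates 1 to 3. The libraries of H1975 OR all lay above those of H1975, in a ratio of 2.23 (1.15 ± 0.0691 SE, limma adjusted p = 1.0e-08). CTSF (11:66330934-66336312), a less abundant endopeptidase, had 18.4, 18.3 and 20.4 FPKM in H1975 OR replicates 1 to 3, against 6.95, 6.48 and 8.24 FPKM in H1975 replicates 1 to 3 (1.29 ± 0.0816 SE, limma adjusted p = 1.7e-08). Chromosome 11, which carries CTSF, CTSC, CTSD and TPP1, had a median of 0.37 over its tested genes. CTSC, the dipeptidyl peptidase that activates serine proteases of immune cells, averaged 80.1 ± 4.199 FPKM in H1975 OR and 57.9 ± 1.503 FPKM in H1975.

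CTSH (15:79213400-79241916), an aminopeptidase that takes part in the processing of surfactant proteins in alveolar type II cells, showed the only decrease of at least 1 on the log2 scale among the 37 genes. It had 1.84, 1.62 and 2.50 FPKM in H1975 OR replicates 1 to 3, against 23.0, 23.8 and 21.2 FPKM in H1975 replicates 1 to 3. The mean in H1975 OR was 0.0876 times that in H1975 (-3.00 ± 0.0988 SE, limma adjusted p = 1.8e-10). CTSL (9:90340434-90346308), a broad endopeptidase, averaged 58.1 ± 3.17 FPKM in H1975 OR and 105 ± 5.85 FPKM in H1975 and fell by 0.85 on the log2 scale. CTSS, which trims the invariant chain of MHC class II, averaged 4.27 ± 0.343 FPKM in H1975 OR and 8.21 ± 0.285 FPKM in H1975. CTSK, the collagen-degrading protease of osteoclasts, averaged 1.09 ± 0.235 FPKM in H1975 OR and 1.66 ± 0.261 FPKM in H1975 and fell by 0.35 on the log2 scale, or by 0.57 with a pseudocount of 0.1. CTSZ, a carboxypeptidase, averaged 72.9 ± 2.44 FPKM in H1975 OR and 72.0 ± 2.67 FPKM in H1975, with overlapping groups.

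The summed FPKM of the 8 cysteine cathepsins was 429, 460.0 and 457 in H1975 OR replicates 1 to 3, against 367, 372 and 371 in H1975 replicates 1 to 3, so that every H1975 OR library lay above every H1975 library. Within that sum CTSB took 47.1% ± 0.861 in H1975 OR and 25.7% ± 1.90 in H1975 (SD, n = 3 each). CTSL took 12.95% ± 0.557 in H1975 OR and 28.5% ± 1.46 in H1975. Parental cells thus had CTSL and CTSB at like shares, and in H1975 OR the share of CTSB was the larger in every library. CTSH took 0.442% ± 0.0979 in H1975 OR and 6.13% ± 0.362 in H1975.

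**Figure D2:**
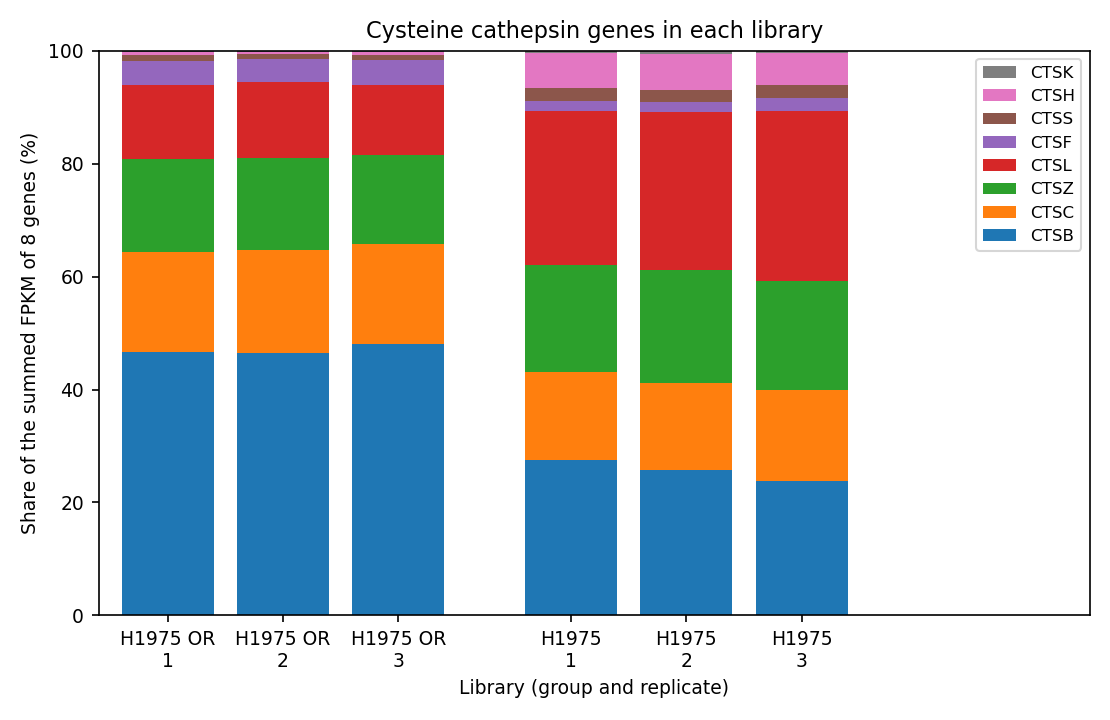
Share of the summed FPKM of the 8 cysteine cathepsin genes taken by each, as stacked bars per library, H1975 OR replicates 1 to 3 on the left and H1975 replicates 1 to 3 on the right. CTSB takes 46.4% to 48.1% in H1975 OR libraries and 23.8% to 27.6% in H1975 libraries.

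Cathepsins such as CTSS and CTSB are also abundant in macrophages, so markers of leukocytes were read beside them. Of 11 such markers 3 were tested: CD14, at 26.8 FPKM in H1975 OR and 2.67 FPKM in H1975, and CD68, itself a lysosomal membrane protein, at 46.9 FPKM in H1975 OR and 22.6 FPKM in H1975, rose, and CSF1R, at 0.373 FPKM in H1975 OR and 4.54 FPKM in H1975, fell. CSF1R was tested only through its level in H1975. The summed level of the list was 70.0 to 79.9 FPKM in H1975 OR libraries and 28.2 to 31.3 FPKM in H1975 libraries. Most of it was CD68 and CD14 in both groups. PTPRC averaged 0.0154 FPKM in H1975 OR and 0.00247 FPKM in H1975, and TYROBP was listed at 0 in every library. FCER1G averaged 0.114 FPKM in H1975 OR and 0.155 FPKM in H1975. CD163, AIF1, ITGAM, MRC1 and LYZ averaged under 0.1 FPKM in both groups. Of 5 osteoclast markers NFATC1 was tested and rose, at 2.26 FPKM in H1975 OR and 1.54 FPKM in H1975. CALCR averaged 0.0128 FPKM in H1975 OR and 0.130 FPKM in H1975, ATP6V0D2 averaged 0.174 FPKM in H1975 OR and 0.388 FPKM in H1975, OCSTAMP averaged under 0.01 FPKM in both groups, and DCSTAMP was listed at 0 in every library. Of 6 fibroblast markers 2 were tested and rose. COL1A1 was at 15.8 FPKM in H1975 OR and 2.45 FPKM in H1975. PDGFRB was at 3.94 FPKM in H1975 OR and 0.0444 FPKM in H1975. It was tested only through its level in H1975 OR. The list summed to 17.5 to 21.3 FPKM in H1975 OR libraries and 2.25 to 2.67 FPKM in H1975 libraries, most of it COL1A1. COL3A1 averaged 0.285 FPKM in H1975 OR and 0.0125 FPKM in H1975. LUM averaged 0.0217 FPKM in H1975 OR and 0.0128 FPKM in H1975, and PDGFRA 0.0233 FPKM in H1975 OR and 0.0116 FPKM in H1975. DCN was listed at 0 in every library. The part of these markers in the differences of the lysosomal genes was not tested. In bulk RNA fewer cells of a type and less RNA per cell cannot be told apart.

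Of the other proteases TPP1 rose by a ratio of 3.99 while the abundant CTSD did not pass and CTSA fell slightly. TPP1 (11:6634000-6640692), which removes tripeptides from protein ends, had 42.3, 45.6 and 45.7 FPKM in H1975 OR replicates 1 to 3, against 10.8, 10.5 and 12.2 FPKM in H1975 replicates 1 to 3. No H1975 library came near the H1975 OR range (1.91 ± 0.0681 SE, limma adjusted p = 8.4e-11). CTSD (11:1773982-1785222), the main aspartic protease of lysosomes, averaged 465 ± 12.2 FPKM in H1975 OR and 429 ± 16.6 FPKM in H1975 (limma adjusted p = 0.11). With TPM (adjusted p = 0.016) and with scaling that left out mitochondrially encoded genes (adjusted p = 0.0026) CTSD passed. CTSA, a serine carboxypeptidase that also protects GLB1 from degradation, averaged 93.4 ± 1.03 FPKM in H1975 OR and 109 ± 2.13 FPKM in H1975 (-0.22 ± 0.0570 SE, limma adjusted p = 0.0037). PPT1, which removes palmitate from proteins, averaged 35.5 ± 2.66 FPKM in H1975 OR and 34.1 ± 1.04 FPKM in H1975 and did not pass.

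Of the 8 glycosidases 7 rose (87.5%) and 1 fell (12.5%), beside 39.9% higher and 38.1% lower among all genes tested. MAN2B1 (19:12757325-12777556), the lysosomal alpha-mannosidase, had 44.9, 48.3 and 53.1 FPKM in H1975 OR replicates 1 to 3, against 14.3 FPKM in each H1975 library. The ratio of the means was 3.41 (1.70 ± 0.0680 SE, limma adjusted p = 2.4e-10). HEXA, the alpha subunit of beta-hexosaminidase A, averaged 21.7 ± 1.56 FPKM in H1975 OR and 11.0 ± 0.866 FPKM in H1975 and was just under a difference of 1 on the log2 scale, at 0.92. IDUA, the iduronidase of heparan and dermatan sulfate breakdown, averaged 1.98 ± 0.169 FPKM in H1975 OR and 0.826 ± 0.129 FPKM in H1975, a difference of 0.71, or 1.17 with a pseudocount of 0.1.

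The remaining glycosidases changed less. GAA, the acid alpha-glucosidase of glycogen breakdown, averaged 28.3 ± 2.51 FPKM in H1975 OR and 20.1 ± 0.653 FPKM in H1975. MANBA, the beta-mannosidase, rose by 0.40, GLA, the alpha-galactosidase A of globoside breakdown, by 0.36, and the beta-galactosidase gene GLB1 by 0.17 on the log2 scale. The call of GLB1 was lost without H1975 OR replicate 2 (limma adjusted p = 0.056) and without H1975 replicate 3 (limma adjusted p = 0.063). GUSB (7:65425671-65447301), the beta-glucuronidase, averaged 18.6 ± 1.13 FPKM in H1975 OR and 26.7 ± 0.401 FPKM in H1975 and fell by 0.50 on the log2 scale. The tested genes of chromosome 7, on which it lies, had a median of -0.55. GUSB has pseudogenes with which it can share reads, and the most abundant of them, GUSBP1, had 7.23, 7.36 and 7.44 FPKM in H1975 OR replicates 1 to 3, against 4.18, 4.51 and 3.93 FPKM in H1975 replicates 1 to 3. How reads were divided between them was not tested.

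The sulfatases moved in pairs, ARSA and ARSB up and IDS and SGSH down. ARSA (22:51061182-51066607), which splits sulfate from myelin sulfatide, had 14.5, 17.2 and 17.2 FPKM in H1975 OR replicates 1 to 3, against 4.38, 4.50 and 5.36 FPKM in H1975 replicates 1 to 3. Its groups were well apart (1.59 ± 0.0847 SE, limma adjusted p = 3.6e-09). ARSB, which acts on dermatan and chondroitin sulfate, averaged 3.62 ± 0.0772 FPKM in H1975 OR and 1.63 ± 0.0879 FPKM in H1975. IDS, the iduronate sulfatase, averaged 23.4 ± 0.300 FPKM in H1975 OR and 33.8 ± 1.03 FPKM in H1975. A further ID with the symbol IDS and the pseudogene IDSP1 were each under 1 FPKM in every library. SGSH, the heparan sulfamidase, averaged 7.79 ± 0.491 FPKM in H1975 OR and 8.96 ± 0.438 FPKM in H1975 (-0.18 ± 0.0669 SE, limma adjusted p = 0.026). This call was lost with TPM (adjusted p = 0.061), with scaling that left out mitochondrially encoded genes (adjusted p = 0.15), without H1975 OR replicate 2 (adjusted p = 0.099) and without H1975 replicate 1 (adjusted p = 0.12). Enzymes of the same heparan sulfate pathway, IDUA, IDS, SGSH and GUSB, thus did not move together.

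In the group of lipid hydrolases and helpers GRN, LIPA and PSAP rose and NPC2 and ASAH1 fell. GRN (17:42422614-42430470), progranulin, a secreted and lysosomal protein that is cleaved to granulins, had 287, 312 and 312 FPKM in H1975 OR replicates 1 to 3, against 149, 141 and 163 FPKM in H1975 replicates 1 to 3. It had rank 3 by level in H1975 OR, and its difference was just past 1 on the log2 scale (1.01 ± 0.0709 SE, limma adjusted p = 4.5e-08). With median-of-ratios scaling the difference of GRN was 0.997, just under 1. PSAP, the precursor of the saposins that present sphingolipids to their hydrolases, averaged 416 ± 19.9 FPKM in H1975 OR and 318 ± 8.19 FPKM in H1975. LIPA, the acid lipase that frees cholesterol from its esters, averaged 91.1 ± 6.37 FPKM in H1975 OR and 61.1 ± 1.96 FPKM in H1975.

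NPC2, which hands free cholesterol to the membrane protein NPC1, averaged 102 ± 2.93 FPKM in H1975 OR and 146 ± 13.7 FPKM in H1975 and fell by 0.50 on the log2 scale. ASAH1, the acid ceramidase, averaged 21.2 ± 0.188 FPKM in H1975 OR and 27.5 ± 2.08 FPKM in H1975. SQSTM1 (5:179233388-179265078), also called p62, which links ubiquitinated cargo to the autophagosome, had 145, 173 and 153 FPKM in H1975 OR replicates 1 to 3, against 163, 158 and 152 FPKM in H1975 replicates 1 to 3. Its groups overlapped (-0.01 ± 0.0737 SE, limma adjusted p = 0.92), and the sign of so small a difference changed between settings.

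**Figure D3:**
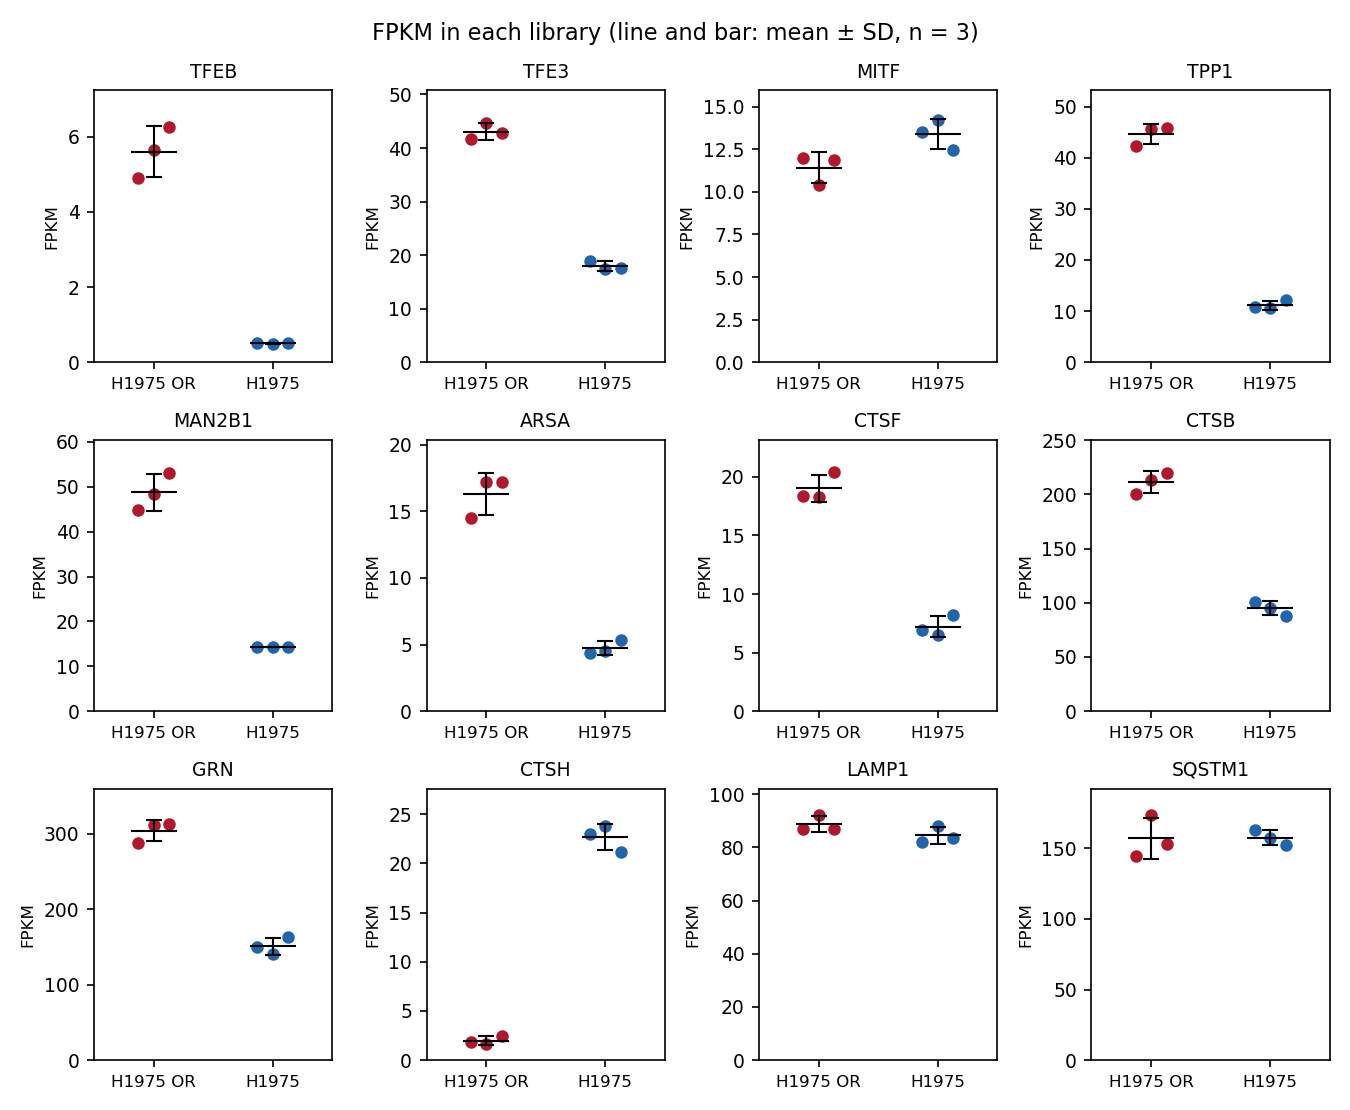
FPKM in each library for 12 of the 37 genes, H1975 OR on the left of each panel and H1975 on the right, with the mean and SD of 3 libraries as black bars and the vertical axis starting at 0. TFEB, TFE3, TPP1, MAN2B1, ARSA, CTSF, CTSB and GRN are higher in every H1975 OR library and CTSH is lower, while the groups of LAMP1 and SQSTM1 overlap.

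Other genes of the pathway were read from lists of their own. Of 28 tested members of the list of other soluble lysosomal enzymes 17 were higher (60.7%) and 6 lower (21.4%), with a median of 0.44, beside 39.9% higher and 38.1% lower among all genes tested. With a minimum of 1 FPKM in both groups 16 of this list were higher and 5 lower. CTSO, a further cysteine cathepsin, averaged 5.68 ± 0.305 FPKM in H1975 OR and 0.886 ± 0.225 FPKM in H1975. It was tested only through its level in H1975 OR. AGA, which cleaves the link between asparagine and glycans, averaged 17.3 ± 0.905 FPKM in H1975 OR and 4.71 ± 0.168 FPKM in H1975. In the other direction ACP5, the tartrate-resistant acid phosphatase, averaged 0.281 ± 0.267 FPKM in H1975 OR and 28.9 ± 1.35 FPKM in H1975. ACP5 was tested only through its level in H1975. CTSV, the closest relative of CTSL, averaged 2.67 ± 0.399 FPKM in H1975 OR and 13.5 ± 0.804 FPKM in H1975, so that both genes of this pair fell.

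Of 20 other membrane proteins and channels 12 were higher (60.0%) and 6 lower (30.0%), beside 39.9% and 38.1% of all genes tested, with a median of 0.33. SLC17A5, the sialic acid exporter, averaged 8.63 ± 0.412 FPKM in H1975 OR and 1.57 ± 0.0830 FPKM in H1975, and SCARB2, the receptor that carries beta-glucocerebrosidase to lysosomes, averaged 45.9 ± 1.195 FPKM in H1975 OR and 21.1 ± 0.315 FPKM in H1975. SLC17A5 lies on chromosome 6, whose tested genes had a median of 0.37. ABCB9, a lysosomal peptide transporter, and LAMP3 fell, ABCB9 by 1.46 and LAMP3 by 1.24 on the log2 scale. LAMP3, at a mean of 0.142 FPKM in H1975 OR and 1.72 FPKM in H1975, was tested only through its level in H1975. Of 17 tested V-ATPase genes, which encode the proton pump and its accessory proteins, 6 were higher (35.3%) and 4 lower (23.5%) with a median of 0.13, and 0 changed by 1 on the log2 scale. The higher share was near the 39.9% of all genes tested, and the lower share was under their 38.1%. The accessory gene ATP6AP2 (0.78) and the subunit gene ATP6V1B2 (0.54) had the largest increases of this list. The subunit genes ATP6V1C1 (-0.83) and ATP6V1F (-0.71) had its largest decreases. ATP6V1F lies on chromosome 7, whose tested genes had a median of -0.55.

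Genes of mannose 6-phosphate sorting counted 10 higher (83.3%) and 0 lower of 12, beside 39.9% higher and 38.1% lower among all genes tested, with a median of 0.44. In each of 2 alternatives, leaving out H1975 OR replicate 2 and median-of-ratios scaling, 1 of them was lower. With a minimum of 1 FPKM in both groups 9 of them were higher. IGF2R, the large mannose 6-phosphate receptor, averaged 54.0 ± 1.48 FPKM in H1975 OR and 22.3 ± 0.358 FPKM in H1975. It lies on chromosome 6, whose tested genes had a median of 0.37. SORT1, sortilin, which also delivers hydrolases and progranulin, averaged 2.32 ± 0.349 FPKM in H1975 OR and 0.724 ± 0.0461 FPKM in H1975. SORT1 was tested only through its level in H1975 OR. The list of mTORC1, Rag, folliculin and calcineurin genes, which control where MiT/TFE factors reside, counted 9 higher (42.9%) and 7 lower (33.3%) of 21, with a median of 0.02. These shares were near the 39.9% and 38.1% of all genes tested. With a minimum of 1 FPKM in both groups 8 of this list were higher and 7 lower. Of its Rag GTPase genes RRAGD, RRAGB and RRAGC rose, RRAGC by 0.42 on the log2 scale, and RRAGA fell. RRAGD averaged 1.94 ± 0.123 FPKM in H1975 OR and 0.264 ± 0.0484 FPKM in H1975. It was tested only through its level in H1975 OR. RRAGB averaged 5.22 ± 0.254 FPKM in H1975 OR and 2.16 ± 0.0704 FPKM in H1975. RRAGA averaged 19.9 ± 1.099 FPKM in H1975 OR and 44.5 ± 1.66 FPKM in H1975. LAMTOR4, of the scaffold that holds Rag GTPases on the lysosome, averaged 40.8 ± 2.51 FPKM in H1975 OR and 99.9 ± 4.55 FPKM in H1975. LAMTOR4 lies on chromosome 7, whose tested genes had a median of -0.55, and RRAGD on chromosome 6, with a median of 0.37.

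Autophagy genes counted 16 higher (57.1%) and 8 lower (28.6%) of 28, beside 39.9% and 38.1% of all genes tested, with a median of 0.35. In this list 16 were higher and 7 lower with a minimum of 1 FPKM in both groups. WIPI1, a phosphoinositide-binding protein of early autophagosomes, averaged 20.1 ± 1.47 FPKM in H1975 OR and 4.91 ± 0.378 FPKM in H1975, and GABARAPL1, of the ATG8 family, 16.7 ± 0.429 FPKM in H1975 OR and 5.05 ± 0.876 FPKM in H1975. ATG16L1, of the ATG8 conjugation machinery, averaged 7.41 ± 0.165 FPKM in H1975 OR and 19.1 ± 1.02 FPKM in H1975. The receptor gene TAX1BP1 averaged 45.5 ± 0.967 FPKM in H1975 OR and 98.7 ± 2.96 FPKM in H1975. TAX1BP1 lies on chromosome 7, whose tested genes had a median of -0.55. The list of cystatins and other cathepsin inhibitors held 10 genes, of which 6 were tested, and 1 rose (16.7%) and 5 fell (83.3%), beside 39.9% higher and 38.1% lower among all genes tested, with a median of -0.61. With a minimum of 1 FPKM in both groups 3 of them were lower. CST6, cystatin M, averaged 0.243 ± 0.0812 FPKM in H1975 OR and 34.2 ± 7.12 FPKM in H1975. It was tested only through its level in H1975. CSTB, the cytosolic cystatin B, averaged 18.5 ± 0.548 FPKM in H1975 OR and 70.2 ± 2.55 FPKM in H1975. The serpin gene SERPINB6 rose by 0.44 on the log2 scale. It lies on chromosome 6, whose tested genes had a median of 0.37.

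**Figure D4:**
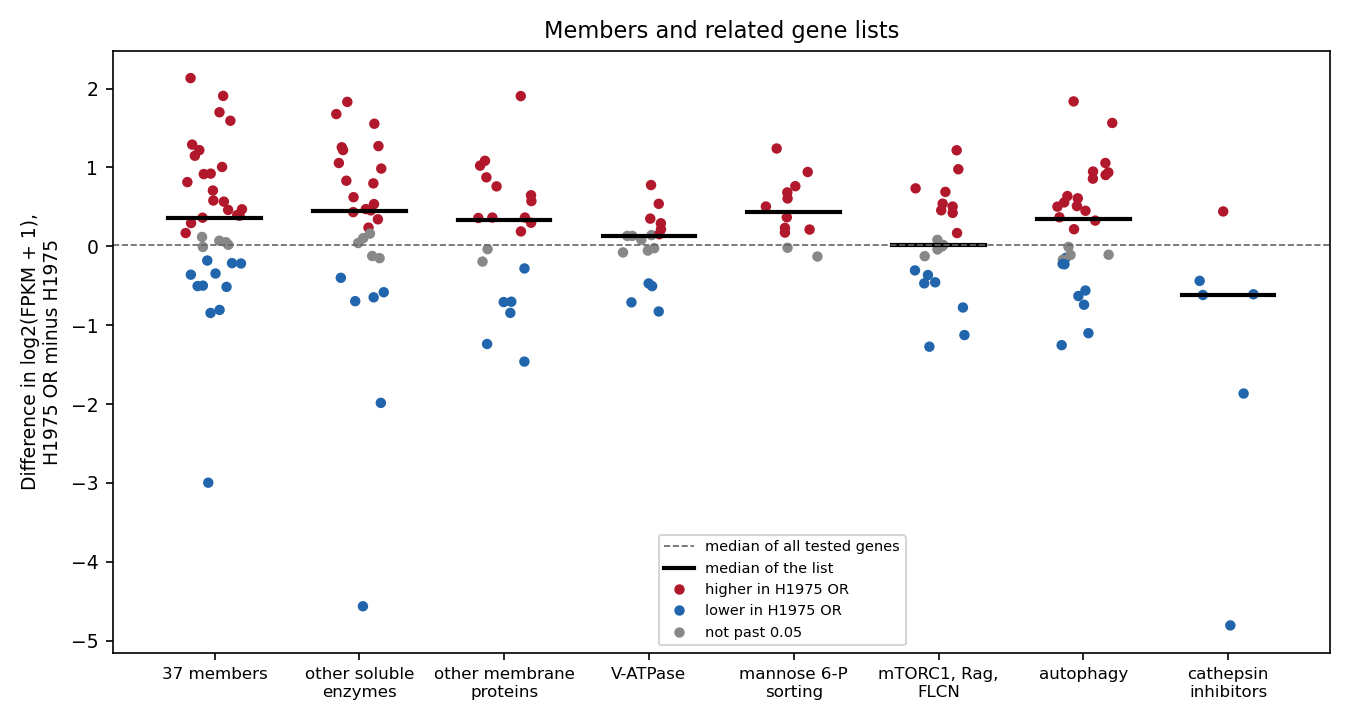
Difference in log2(FPKM + 1), H1975 OR minus H1975, for the 37 genes and for the tested genes of 7 related lists, 1 point per gene, with horizontal bars for list medians and a dashed line for the median of all tested genes at 0.01. List medians run from -0.61 for cathepsin inhibitors to 0.44 for other soluble enzymes and for mannose 6-phosphate sorting.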

How the data were processed

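The submitters' processing notes name the build GRCh37 and the tool DESeq, whose role they do not state. The aligner, the quantification tool, the annotation and the use of strand are likewise not given. The authors deposited FPKM in a series table, and FPKM, TPM and mean coverage with GRCh37 coordinates in a file per library. All 6 value columns of the series table were matched to a library by title. Deposited coverage divided by FPKM gave the estimated gigabases. Read counts were not used, so depth in reads and counting error are unknown.

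The test was limma (version 3.58.1, R 4.3.3) on log2(FPKM + 1), two-sided, with a mean-variance trend, robust variance estimates and no covariate. It covered the 12107 genes whose mean reached 1 FPKM in H1975 OR or in H1975, and p-values were adjusted over these by Benjamini-Hochberg. Alternatives changed the pseudocount, filter, scaling, unit, moderation, replicate block and libraries. Differences are H1975 OR minus H1975. The code was tested on simulated data. For CLN3 and IDS, each on 2 rows, the ID that the reference pairs with the symbol was used. Members, lists and promoter motifs were chosen with earlier results of these data known. Values of each library are given for the MiT/TFE factors, LAMP1, LAMP2, MCOLN1, SQSTM1 and members past 1 on the log2 scale. From each list the 2 largest changes in each direction past 0.05 are named. Other genes named were chosen after their values were seen. The p-values rest on 3 libraries a group.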

Additional observations from a re-analysis of the deposited data

How the results depend on the processing

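Under 15 alternatives 29 of the 37 genes kept their direction and their side of the threshold wherever they were tested, and the other 8 were MITF, LAMP1, CTSZ, CTSD, PPT1, GLB1, SGSH and SQSTM1, all with a difference under 0.25 on the log2 scale. The count of higher genes was 19 to 23 and that of lower genes 9 to 11. The count of genes higher by at least 1 on the log2 scale was 7 to 11, with 11 at a pseudocount of 0.1 and 10 with TPM, and 1 gene, CTSH, was lower by that much throughout. The median over the 37 genes was 0.29 for the 35 genes with at least 1 FPKM in both groups, 0.40 with TPM and 0.44 with scaling that left out mitochondrially encoded genes. Leaving out each library in turn gave a median of 0.31 to 0.39. LAMP1 passed with scaling that left out mitochondrially encoded genes (limma adjusted p = 0.022). The difference of SQSTM1 turned to 0.026 with TPM and to 0.066 with scaling that left out mitochondrially encoded genes, and ran from -0.081 to 0.048 when libraries were left out. That of CTSZ ran from -0.0076 to 0.045 and that of PPT1 from -0.0076 to 0.085 when libraries were left out. The causes were not tested. Same-numbered libraries did not deviate together (correlations of -0.136, 0.0761 and 0.0990), and with the replicate block 21 genes were higher and 11 lower, with a median of 0.36. The pseudocount of 0.1 moved the differences of TFEB (3.24), IDUA (1.17) and CTSK (-0.57) by over 1.5 times.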
